A study of Mus musculus with 2 samples.

Results

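The cadherin genes examined here are Cdh1 and Cdh3, which encode the classical E- and P-cadherin, and Dsc2, Dsc3, Dsg2 and Dsg3, which encode desmocollins and desmogleins of the desmosome. These 6 genes lie in 2 places, the Cdh3-Cdh1 pair on chromosome 8 and the desmocollin-desmoglein cluster on chromosome 18. Ehf peaks were taken where their midpoint lay in an interval drawn around each place, chr8:108985000-109245000 (260 kb) and chr18:20070000-20815000 (745 kb) of the mouse build mm9. Of the 15384 peaks in the deposited list, 5 met this rule, 3 at Cdh3-Cdh1 and 2 at the desmocollin-desmoglein cluster.

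The study mapped binding of Ehf, an ETS-family transcription factor made in epithelia, in the corneal epithelium of wild-type mice aged 2 to 3 months by ChIP-seq. The strain is called CB6 in the protocols and C57Bl/6 in the sample labels. Dispase-isolated epithelium of 15 mice was pooled, and 24 ug of sonicated chromatin was precipitated with the antibody ESE-3A (E-15). A library of input chromatin, which was not precipitated, was sequenced beside it, and the input gave no values to this comparison. There was 1 library per group and 1 peak list, so the data carry no spread between biological samples and no difference between conditions could be tested. The list gives no read counts, so the depth behind a peak is unknown. Intervals below cover counting error of a number of peaks only, and peaks that lie in groups vary more than such intervals allow.

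Classical cadherins join neighbouring epithelial cells at adherens junctions, where their cytoplasmic tails bind catenins that connect to actin. Desmocollins and desmogleins are the adhesive cadherins of desmosomes, whose plaque proteins connect to keratin filaments. In stratified epithelia, E-cadherin is present through the layers and P-cadherin is best known from the basal layer. In the epidermis, desmosomal cadherins change with differentiation, with Dsg3 and Dsc3 best known from the lower layers, while Dsg2 and Dsc2 are also made in simple epithelia. Positions of genes in mm9 were not used, so a peak is placed in an interval and is not given to an exon, an intron or a promoter of 1 gene. In the RefSeq table of the build GRCm38.p6, used only for names and order, Cdh3 and Cdh1 are adjacent protein-coding genes between Zfp90 and Tango6. The order on chromosome 18 is Dsc3, Dsc2, Dsc1, Dsg1c, Dsg1a, Dsg1b, Dsg4, Dsg3 and Dsg2, a run of 9 cadherin genes that lies between Cdh2, the gene of N-cadherin, and Ttr. How many of these genes lie wholly inside each mm9 interval was not examined, and no peak is assigned to a gene.

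The 3 peaks at Cdh3-Cdh1 lay in the first 142 kb of the interval at near-even steps. The first, at chr8:109001275-109001551, was 276 bp wide and had a score of 92.98, the highest of the 3. The second, at chr8:109062631-109062896, was 265 bp wide with a score of 63.82. The third, at chr8:109127063-109127514, was the widest at 451 bp and had a score of 64.82. Scores are as the authors deposited them, on a scale that neither the labels nor the file define, and serve here to rank peaks within the list. The first and second peaks were 61.1 kb apart edge to edge, and the second and the third 64.2 kb. Nothing in the list lay in the remaining 118 kb of the interval, and the gap after the third peak ran for 280 kb, to a peak outside the interval at chr8:109407784-109407936 with a score of 70.85. Of the 857 gaps between neighbouring peaks on chromosome 8, 12.7% were longer than that one. Before the interval, the nearest peak lay 98.2 kb from the first member, at chr8:108902535-108903039, with a score of 57.06.

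The desmocollin-desmoglein cluster had a peak at chr18:20333509-20334014, 505 bp wide with a score of 66.83, and another at chr18:20546855-20547057, 202 bp wide with a score of 99.39. The wider peak had the lower score. These peaks lay 264 and 477 kb from the start of the interval, at 35.4% and 64.0% of its length. Both were therefore in its middle part, away from the end near Dsc3 and the end near Dsg2. They were 213 kb apart. Stretches of 346 kb before the first and 368 kb after the second held no peak, and both reach beyond the interval. On chromosome 18, with 518 gaps between neighbours, 24.9% of gaps were longer than 213 kb, 13.1% longer than 346 kb and 11.8% longer than 368 kb. Of consecutive 50 kb bins counted from the start of the interval, 13 of 15 were without a peak, against 3 of 6 at Cdh3-Cdh1, where the last bin is shorter. A region below the authors' threshold is not in the list, so an empty stretch is not evidence that Ehf was absent there.

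**Figure D1:**
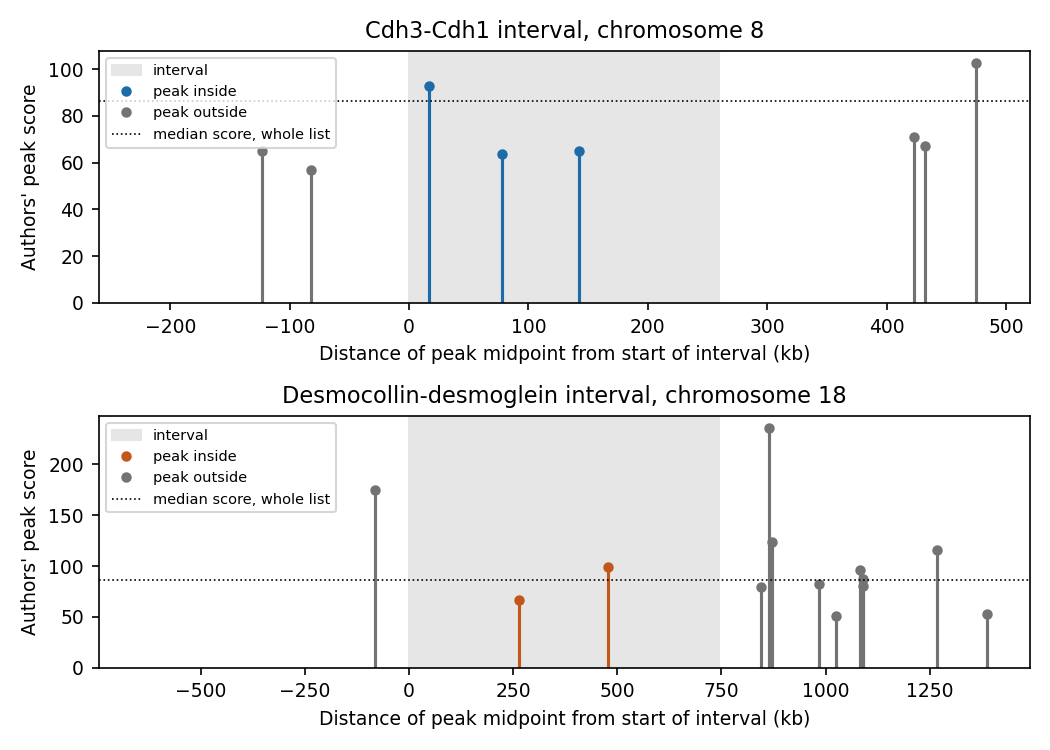
Ehf peaks around each locus, by the distance of the peak midpoint from the start of the interval (kb) and the authors' score, with the interval shaded and an equal length shown on each side. The 3 peaks at Cdh3-Cdh1 lie in its first 142 kb, and the 2 in the desmocollin-desmoglein interval lie near its middle, with 10 peaks in the equal stretch after it.

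Peak density differed in direction between the loci, and neither differed from its chromosome beyond counting error. At Cdh3-Cdh1 it was 11.5 peaks per Mb (exact 95% Poisson interval 2.38 to 33.7), against 6.50 per Mb (6.07 to 6.95) for the 855 peaks on the rest of chromosome 8. The ratio was 1.77 (exact 95% interval 0.365 to 5.20). At the desmocollin-desmoglein cluster it was 2.68 per Mb (0.325 to 9.70), against 5.74 per Mb (5.26 to 6.26) for the 517 peaks on the rest of chromosome 18. That ratio was 0.467 (0.0565 to 1.70). At the density of the rest of the chromosome, 1.69 peaks would fall in the first interval, where 3 were found, and 4.28 in the second, where 2 were found. Cdh3-Cdh1 had 4.30 times the density of the desmosomal cluster (exact 95% interval 0.492 to 51.5), a difference that cannot be resolved with 3 and 2 peaks. The densities also depend on how much sequence around the genes an interval takes in.

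Windows of the same length on the same chromosome showed that counts of this size were common. Of 13096 windows of 260 kb stepped by 10 kb along chromosome 8, 26.6% held at least 3 peaks and 82.9% held at most 3, with a median of 1. Of 8854 windows of 745 kb on chromosome 18, 75.8% held at least 2 peaks and 37.3% held at most 2, with a median of 4. Windows without any peak made up 39.8% on chromosome 8 and 9.65% on chromosome 18. These windows overlap each other and include unsequenced stretches, so the shares describe the chromosome and are not tests.

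**Figure D2:**
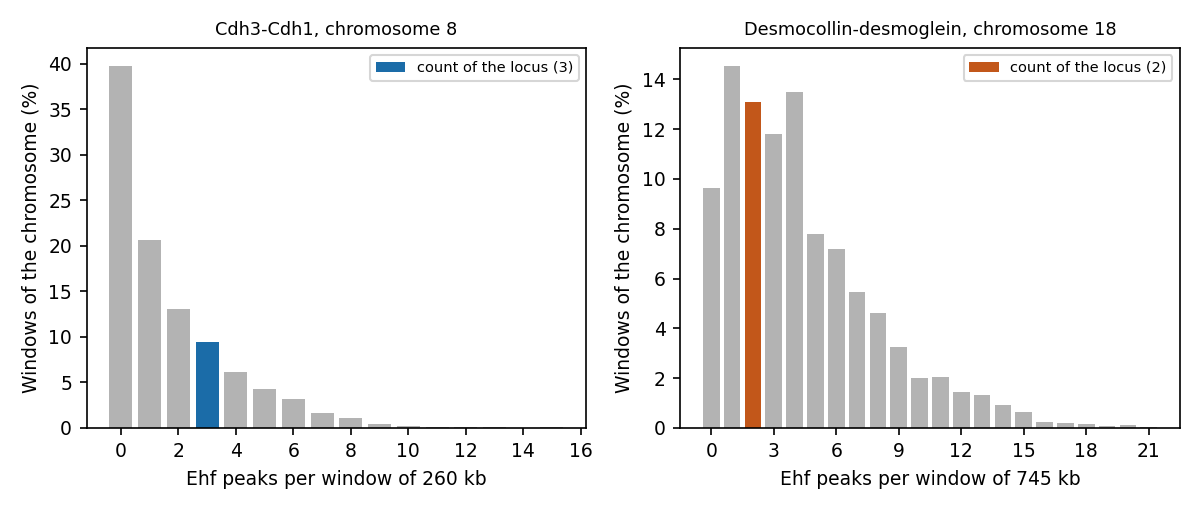
Share of windows (%) by the number of Ehf peaks they hold, for windows of 260 kb on chromosome 8 and 745 kb on chromosome 18, with the count of each locus in colour. On chromosome 8, 26.6% of windows reach the 3 peaks of Cdh3-Cdh1, and on chromosome 18, 75.8% reach the 2 peaks of the desmosomal cluster.

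Over equal lengths on both sides, density was 9.62 peaks per Mb around Cdh3-Cdh1, against 11.5 inside. It was 7.38 per Mb around the desmosomal cluster, against 2.68 inside. Equal lengths on both sides of Cdh3-Cdh1 held 2 peaks before and 3 after, close to the 3 inside. Beside the desmosomal cluster, the 745 kb on the Cdh2 side held 1 peak and the 745 kb on the Ttr side held 10, against 2 inside. The nearest peak on the Cdh2 side was chr18:19987673-19987836, 82.2 kb outside the interval, and its score of 175.15 was above those of both members. The nearest on the Ttr side was chr18:20915121-20915276, 100 kb outside, with a score of 79.69. Differences between a locus and its flanks were not tested.

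None of the 5 cadherin peaks was among the high scores of its chromosome. On the rest of chromosome 8 the median score was 82.7 with quartiles of 66.4 and 114, and scores ran from 50.2 to 638. The first peak at Cdh3-Cdh1 scored above 60.2% of those peaks, the second above 21.5% and the third above 22.7%. The median of the 3 was 64.8, a difference of -17.9 from that of the rest. No interval was computed for the score difference at either locus, with only 3 and 2 peaks, and neither was tested. On the rest of chromosome 18 the median was 87.4, with quartiles of 67.7 and 129 and scores from 50.6 to 442. The first desmosomal peak scored above 24.0% and the second above 60.0% of them. The middle of these 2 scores, 83.1, differed from the median of the rest by -4.33, but by 5.87 when peaks under 200 bp were left out. At or above the median of the whole list, 86.2, were 1 of 3 peaks at Cdh3-Cdh1, against 46.9% on the rest of chromosome 8, and 1 of 2 at the desmosomal cluster, against 50.9% on the rest of chromosome 18. The scores of the loci overlapped, from 63.82 to 92.98 in the first and from 66.83 to 99.39 in the second.

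All 5 peaks were 200 bp wide or more, as were most peaks on the rest of either chromosome. On the rest of chromosome 8, 19.4% were narrower than that, and on the rest of chromosome 18, 26.3%. The peak of 202 bp at the desmosomal cluster was just above this limit, which an earlier look at the list had set. Peaks on the rest of chromosome 8 had a median width of 374 bp, above 2 of the 3 widths at Cdh3-Cdh1. On the rest of chromosome 18 the median was 351 bp, between the widths of both members. Peaks covered 0.382% of the Cdh3-Cdh1 interval and 0.0949% of the desmosomal one, against 0.246% and 0.203% of the rest of the respective chromosome.

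**Figure D3:**
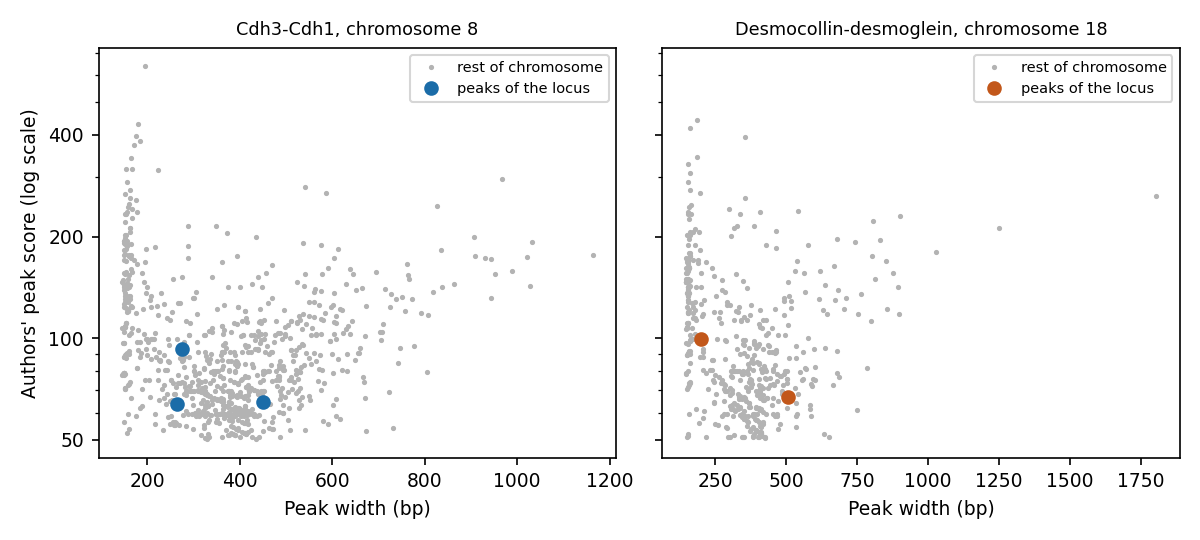
Peak width (bp) against the authors' score (log scale) for each peak on chromosomes 8 and 18, with the peaks of the loci as large coloured points. The 5 peaks have scores from 63.8 to 99.4 and widths from 202 to 505 bp, inside the main body of the grey points.

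Most peaks on the rest of either chromosome had no other peak within 10 kb, and the same held for the cadherin peaks. None of the 3 at Cdh3-Cdh1 had another peak within 10 kb (exact 95% Clopper-Pearson interval up to 70.8%), against 29.1% of the peaks on the rest of chromosome 8. None of the 2 at the desmosomal cluster did (up to 84.2%), against 26.1% on the rest of chromosome 18. For all 5 together the upper limit was 52.2%, above both of these shares. None of the 5 had a neighbour within 50 kb either, where the shares of the rest were 65.1% on chromosome 8 and 58.6% on chromosome 18. The limit of 52.2% for the 5 peaks together lies below those shares, but it treats the 5 as independent, so no difference is drawn from it. The limits of 70.8% and 84.2% for each locus alone lie above those shares. Peaks that are each other's nearest share 1 gap and are not independent, so these limits are narrower than the data allow. At Cdh3-Cdh1 the gap to the nearest peak was 61.1, 61.1 and 64.2 kb, since the first and second peaks are each other's nearest. The rest of chromosome 8 had a median of 28.6 kb with quartiles of 8.19 and 69.2 kb, so these gaps were above its median and inside its quartiles. At the desmosomal cluster both peaks had the same nearest gap, 213 kb, and 88.4% of the peaks on the rest of chromosome 18 had a shorter one. The median there was 37.7 kb, with an upper quartile of 98.1 kb.

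**Figure D4:**
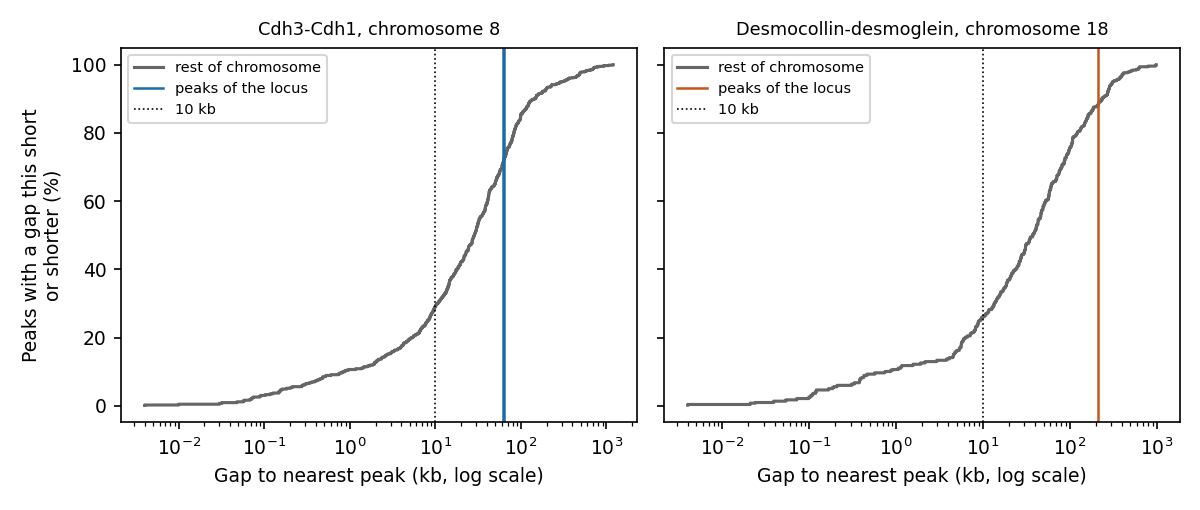
Cumulative share of peaks (%) by the gap to their nearest peak (kb, log scale) on the rest of chromosomes 8 and 18, with the gaps of the locus peaks as coloured lines and 10 kb dotted. The lines at 61.1 and 64.2 kb for Cdh3-Cdh1 nearly coincide and lie below the upper quartile of 69.2 kb, and the line at 213 kb for the desmosomal cluster lies above the upper quartile of 98.1 kb.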

How the data were processed

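The deposited file is 1 list of Ehf peaks without a header, with chromosome, start, end, name and score. The score is the authors' value as deposited, with no stated unit. Peak names begin with MACS_peak. For that peak caller, the version, the settings and the use of the input are not stated in the labels. Bowtie 0.12.7, bedtools 2.11.2 and mm9 are named in the submitters' processing notes. Positions are printed as in the file, so a start may be off by 1 bp. No peak ended beyond its mm9 chromosome (lengths from GenomeInfoDb 1.38.1).

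Peaks were assigned by midpoint. Density is per Mb of full chromosome length, unsequenced stretches included, and gaps run edge to edge. Groups follow the sample titles. The members, intervals and limits were chosen with earlier results of these data known. All member peaks and the nearest peak beyond each end are named. No test was made, because 1 library gives no replicates. The functions were checked on simulated lists. Counts for other junction genes and the ETS motif need an annotation or sequence of mm9 and were not run. Alternatives covered score, width, merging, bounds, reference and distance. Python 3.11.15, numpy 2.4.6, pandas 2.3.3, scipy 1.17.1 and matplotlib 3.10.9 were used.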

Additional observations from a re-analysis of the deposited data

How the results depend on the processing

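The densities moved by less than their counting error, while the score differences did not all keep their size or sign. The density ratio ran from 1.26 to 2.20 at Cdh3-Cdh1 and from 0.412 to 0.634 at the desmosomal cluster over 8 alternatives each. Neither crossed 1, but most of these settings kept the same member peaks, so this adds little on direction. All values lay within the intervals of the report, which are wide and include 1. The lowest value at Cdh3-Cdh1 came with scores at or above the median of the list, which left 1 peak in each locus. Narrowing the intervals by 25 kb dropped the first peak at Cdh3-Cdh1 and gave 1.46, and widening them by 50 kb gave 1.28. The ratio of the loci to each other ran from 2.87 to 4.30 over 6 alternatives chosen after seeing the data. The score difference left the range set by the member peaks for scores at or above the median of the list, with -25.9 at Cdh3-Cdh1 and -29.8 at the desmosomal cluster. It also did so at Cdh3-Cdh1 against the other autosomes, with -21.4. At the desmosomal cluster it turned from -4.33 to 5.87 with peaks of 200 bp or more. By mean log2 score it was -0.31 and -0.23. The share of member peaks with a near neighbour was 0 in all 10 alternatives per locus, which included distances of 5 and 50 kb. Nearest gaps were at least 61.1 kb at Cdh3-Cdh1 and 213 kb at the desmosomal cluster. Filtering, merging, a shorter distance or another reference could therefore only return 0 again, so these settings are not independent checks. Shares of windows with at least as many peaks were highest, at 27.4% on chromosome 8 and 78.9% on chromosome 18, with windows between the first and the last peak, a setting added after seeing the data. No paired analysis was possible because there was only 1 library per group.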
